A study of Mus musculus and Rattus norvegicus with 28 samples.

Results

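The AP1 factors described here are 10 genes that encode basic leucine zipper proteins, and they were taken by name: Jun, Junb and Jund of the Jun subfamily, Fos, Fosb, Fosl1 and Fosl2 of the Fos subfamily, and the relatives Atf3, Jdp2 and Batf. They are 10 of 55450 genes in the mouse files and 10 of 32623 in the rat files. Mouse RNA came from left ventricular cardiomyocytes of wild-type C57BL/6 animals of both sexes, taken on embryonic day 18.5 (E18.5) or on postnatal day 1, 3 or 7 (P1, P3, P7), and each stage had 2 libraries. The cells were released by overnight digestion in cold trypsin and then in warm collagenase. They were next kept in medium with serum in an incubator, so that cells that attach quickly could be left behind on the dish. The unattached cells were then used without further culture. ATAC-seq, which cuts accessible chromatin with a transposase, was done on the same 4 stages with 2 libraries each, and 111 of 63439 accessible regions lay within 50 kb of a start of 1 of the 10 genes. Rat RNA came from cultured ventricular cells of P1 Sprague Dawley pups (NRVCs), 3 libraries with the solvent DMSO and 3 with 100 nM trichostatin A (TSA), an inhibitor of histone deacetylases. No gene was altered in any of these groups, and nothing in the labels says whether a library is 1 animal, a litter or a pool, so the p-values measure the spread between these libraries.

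AP1 proteins bind DNA as pairs. A Jun protein can pair with itself or with a Fos protein, whereas Fos proteins need a partner, and the pair reads the short element TGACTCA. Fos, Fosb, Jun, Junb and Atf3 are immediate early or stress genes whose mRNA can rise and decay within a short time of a stimulus, including the digestion of a tissue, whereas Jund, Fosl2 and Jdp2 are usually expressed more steadily. In the heart these factors are best known from stretch, injury and hypertrophic growth.

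The libraries differed in cell markers, and these values bear on every comparison of stages below. The summed level of 10 cardiomyocyte markers was 17142 to 21811 FPKM (fragments scaled by transcript length and sequencing depth) in the E18.5 pair, 9287 to 14672 in the P1 pair, 5143 to 6379 in the P3 pair and 807 to 1719 in the P7 pair, whereas 10 fibroblast markers rose from 488 to 500 at E18.5 to 3340 to 4134 in the P7 pair, above the cardiomyocyte sum. None of the cardiomyocyte markers was under 1 FPKM in every library. The 6 erythroid markers summed to 29044 and 35392 FPKM in the E18.5 libraries and to between 4.70 and 41.04 in the other 6. The 8 smooth muscle and pericyte markers summed to 414 to 550 FPKM at E18.5, 1037 to 1112 in the P1 pair, 1127 to 1285 in the P3 pair and 1657 to 1864 in the P7 pair. The 8 endothelial markers summed to 217 to 497 FPKM over all 8 libraries. Macrophage markers summed to 44.0 to 47.9 FPKM at E18.5 and to 111 to 188 later. The part of these differences in the AP1 results was not tested, and in bulk RNA fewer cells of a type and less RNA per cell cannot be told apart. 

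Sequences at these genes that hold the letters of known control elements are shown first, because the regions around them are described by time point below. Each is read 5' to 3' from the mm10 build (GRCm38.p6), the promoters after RefSeq starts, on the plus strand unless stated, in lower case with the matched element in capitals. For Jun (chr4:95049034-95052222, minus strand), whose protein is known to bind its own promoter, the 250 bases before the start (chr4:95052223-95052472, minus strand) hold the variant AP1 element TGACATCA and, next to it, a match to the consensus of MEF2, a muscle transcription factor.
Jun promoter: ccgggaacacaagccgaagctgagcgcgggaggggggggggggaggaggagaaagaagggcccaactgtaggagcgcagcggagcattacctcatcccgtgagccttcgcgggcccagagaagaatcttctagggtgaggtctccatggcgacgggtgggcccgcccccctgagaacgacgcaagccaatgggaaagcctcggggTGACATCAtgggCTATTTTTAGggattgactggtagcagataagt

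For Atf3 (chr1:191170296-191218039, minus strand), a stress-induced repressor, the 243 bases before the start of its leading transcript Atf3-201 (chr1:191183341-191183583, minus strand) hold a MEF2 match close to that start.
Atf3 promoter: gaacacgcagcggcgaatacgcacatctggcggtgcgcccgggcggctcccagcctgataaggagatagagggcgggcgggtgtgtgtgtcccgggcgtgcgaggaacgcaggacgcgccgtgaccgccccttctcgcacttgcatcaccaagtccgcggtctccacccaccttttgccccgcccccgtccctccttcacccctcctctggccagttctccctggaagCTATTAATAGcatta

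For Fos (chr12:85473890-85477273, plus strand), the 201 bases around the strongest summit of its start region (chr12:85473470-85473670) hold a CArG box, the element read by serum response factor. A region 11.2 kb after an inner noncoding Fos start at 85474911 (chr12:85485979-85486179) holds another. A region 44.8 kb after the same inner start (chr12:85519656-85519856) holds the AP1 element on each strand. Distances here and below run from a region's midpoint to the nearest annotated start of the gene, which can be an inner one.
Fos start region: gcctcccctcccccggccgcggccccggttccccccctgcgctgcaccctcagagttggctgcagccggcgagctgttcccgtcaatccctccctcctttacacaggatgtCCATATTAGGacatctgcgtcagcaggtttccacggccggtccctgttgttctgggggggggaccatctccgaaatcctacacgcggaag
Fos region at 11.2 kb: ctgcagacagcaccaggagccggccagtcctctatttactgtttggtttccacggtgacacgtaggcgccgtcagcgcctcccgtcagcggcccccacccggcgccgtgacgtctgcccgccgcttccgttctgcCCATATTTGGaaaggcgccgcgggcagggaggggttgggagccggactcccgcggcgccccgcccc
Fos region at 44.8 kb: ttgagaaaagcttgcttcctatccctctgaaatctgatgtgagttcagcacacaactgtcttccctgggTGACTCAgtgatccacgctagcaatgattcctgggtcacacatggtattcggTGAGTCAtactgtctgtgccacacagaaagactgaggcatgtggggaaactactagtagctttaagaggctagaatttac

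For Junb (chr8:84974484-84978718, minus strand), a Jun protein that can oppose Jun, CArG boxes lie in a window between its 2 annotated transcripts (chr8:84976580-84976780), past the end of the coding form Junb-201 and before the start of the noncoding Junb-202, and in a region -1.27 kb from its start (chr8:84979977-84980177). A region at -7.21 kb (chr8:84985643-84985843) holds 3 AP1 elements.
Junb region between transcripts: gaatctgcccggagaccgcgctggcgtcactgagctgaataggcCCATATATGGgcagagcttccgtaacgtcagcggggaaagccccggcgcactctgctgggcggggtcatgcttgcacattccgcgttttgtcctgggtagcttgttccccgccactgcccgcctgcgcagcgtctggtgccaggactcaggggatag
Junb region at -1.27 kb: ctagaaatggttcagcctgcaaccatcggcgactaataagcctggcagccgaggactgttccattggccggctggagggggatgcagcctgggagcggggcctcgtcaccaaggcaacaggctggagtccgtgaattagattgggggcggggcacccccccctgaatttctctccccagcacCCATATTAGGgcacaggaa
Junb region at -7.21 kb: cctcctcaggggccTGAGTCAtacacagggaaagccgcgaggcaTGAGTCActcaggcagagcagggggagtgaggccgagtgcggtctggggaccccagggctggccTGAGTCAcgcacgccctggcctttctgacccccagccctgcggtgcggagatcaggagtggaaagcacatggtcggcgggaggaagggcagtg

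The comparison of P1 with E18.5 asks how the mRNA of each factor changed across birth. Fos, Fosb, Atf3 and Jun were far lower after birth, Junb was lower to a smaller extent, and Fosl1, Fosl2, Jdp2 and Batf did not pass the test. A gene was called when the adjusted p of limma was under 0.05 and the absolute log2 fold change of FPKM + 1 was over 1. By this rule 5 of 10 members fell at P1, against 6.06% of all 13979 tested genes called lower. With the erythroid genes left out and the libraries rescaled, 6 members were called at P1, Jund (-1.09) being the addition.

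Fos, the prototype of the Fos subfamily, was at 160 and 182 FPKM in the E18.5 libraries, at 4.81 and 10.4 in the P1 pair, 5.22 and 6.95 in the P3 pair, and 7.61 and 9.56 in the P7 pair. Both E18.5 libraries stood more than 10 times above all 6 later ones. The mean at P1 was 22.4 times below that at E18.5 (log2FC -4.40 ± 0.30 SE, adjusted p = 5.80e-05, limma).

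Fosb, the other Fos protein with a strong activation domain, was at 41.5 and 65.4 FPKM at E18.5 and between 0.309 and 1.40 in the 6 later libraries. Its mean fell 57.3 times by P1 (log2FC -4.78 ± 0.27 SE, adjusted p = 3.66e-05, limma), the largest change in the family. On the log2(FPKM + 1) scale such a change is understated, since the later level lay near the pseudocount.

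Atf3 was at 142 and 205 FPKM at E18.5, at 10.5 and 14.0 in the P1 pair, 8.14 and 6.78 in the P3 pair, and 11.8 in both P7 libraries. It fell 14.1 times by P1 (log2FC -3.71 ± 0.21 SE, adjusted p = 3.66e-05, limma). The groups before and after birth did not overlap.

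Jun was at 111 and 202 FPKM at E18.5, and at 27.4 and 28.7 in the P1 pair, 24.9 and 30.7 in the P3 pair, and 36.0 and 39.8 in the P7 pair. The fall of 5.58 times by P1 (log2FC -2.38 ± 0.25 SE, adjusted p = 3.61e-04, limma) was larger than the spread between libraries.

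Jund, the Jun protein usually present in resting cells, was at 106 and 190 FPKM at E18.5 and between 67.2 and 84.7 in all later libraries. It lies at chr8:70698949-70700616. Its log2FC at P1 was -0.998 ± 0.235 SE with adjusted p = 0.0110 (limma), just inside the fold limit, so it was not called there. It was called at P1 without E18.5 library 1 (-1.42, adjusted p = 7.97e-04) or P1 library 1 (-1.002, 0.0474) and under 4 other settings (limma). At P3 it was called (log2FC -1.04 ± 0.23 SE, adjusted p = 7.42e-03, limma), a call that was lost without E18.5 library 2 (-0.62) and in TPM (-0.79).

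**Figure D1:**
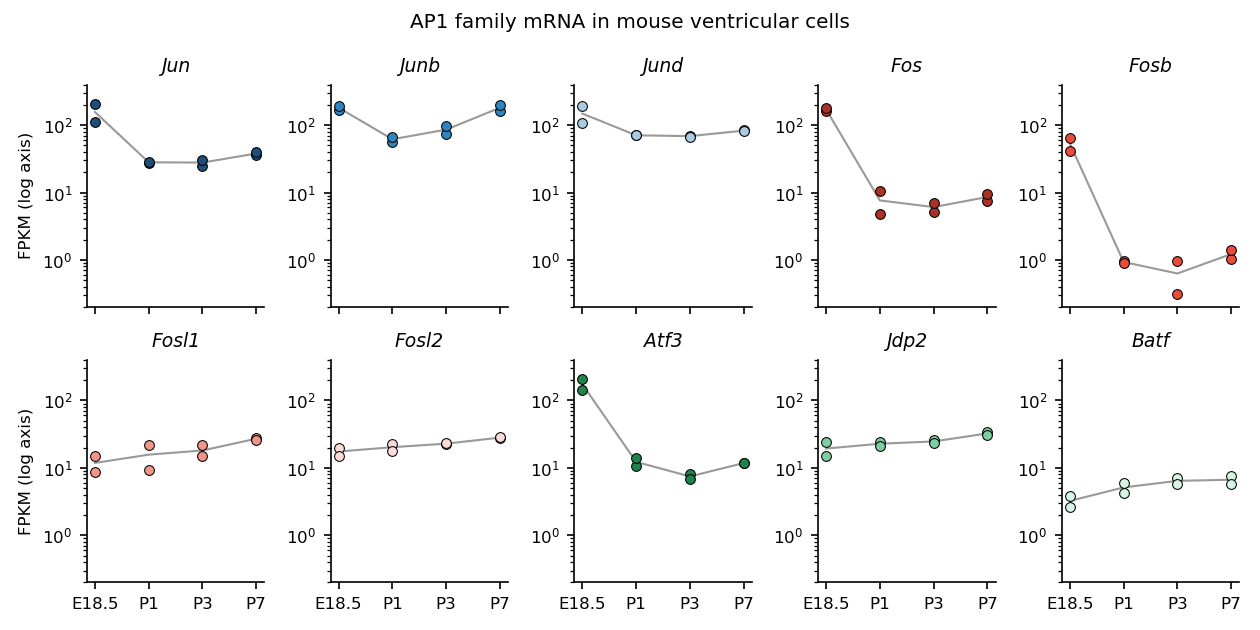
FPKM (log axis) of each of the 10 AP1 genes in the 8 mouse libraries, 2 per time point, with grey lines through the means. Fos, Fosb, Atf3 and Jun drop after E18.5 and stay low, Junb drops to 56.2 and 67.2 in the P1 pair and is back at 164 and 198 by P7, and Fosl2 and Jdp2 lie within a narrow range.

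At P3 and P7 the same question was asked against the same E18.5 libraries, so the 3 comparisons are not independent. At P3, 6 of 10 members fell, against 8.88% of all genes: Fosb (log2FC -5.05), Fos (-4.61), Atf3 (-4.35), Jun (-2.40), Junb (-1.08) and Jund (-1.04). The Junb call at P3 was lost without E18.5 library 2 (-0.98), without P3 library 1 (-0.87) and in TPM (-0.83). At P7, 4 of 10 fell, against 12.3% of all genes: Fosb (-4.58), Fos (-4.17), Atf3 (-3.75) and Jun (-1.96). Adjusted p-values of these 4 at P7 were at most 3.67e-04 (limma), and in 14 fits each their log2FC stayed between -5.48 and -1.53.

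Fosl1, a Fos protein that, like Fosl2, lacks the activation domain of Fos and Fosb, was the member that rose at P7, against 15.4% of all genes called higher. It was at 14.9 and 8.82 FPKM at E18.5, 22.1 and 9.34 in the P1 pair, 14.7 and 21.5 in the P3 pair, and 28.1 and 26.04 in the P7 pair. Only the P7 libraries stood apart from both E18.5 libraries (log2FC 1.17 ± 0.38 SE, adjusted p = 0.0301, limma). The call was lost without E18.5 library 2 (0.82, adjusted p = 0.177), without P7 library 1 (1.12, 0.1004) or library 2 (1.22, 0.0782), with no filter on low values (1.17, 0.102) and with voom weights (1.08, 0.0520), all from limma.

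Fosl2, Jdp2 and Batf were higher at P7 than at E18.5 without reaching the fold limit, and Jund was lower (log2FC -0.77 ± 0.23 SE, adjusted p = 0.0233, limma), also within it. Fosl2 had a log2FC of 0.67 ± 0.17 SE (adjusted p = 0.0120), Jdp2, a repressor that pairs with Jun, 0.75 ± 0.20 (0.0144), and Batf, a factor best known from lymphocytes, 0.86 ± 0.22 (0.0116), all by limma at P7 against E18.5. Fosl2 ran from 15.01 FPKM in E18.5 library 2 to 28.7 in P7 library 2, Jdp2 from 14.9 to 33.9 and Batf from 2.64 to 7.52. Without E18.5 library 1, Jdp2 (1.07), Batf (1.06) and Jund (-1.19) were called too, Batf also without P7 library 2 (1.02). The median of all tested genes itself stood at 0.15 (P1), 0.16 (P3) and 0.14 (P7) on the same scale, at 0.33 to 0.36 in TPM and at 0.03 to 0.04 after median-of-ratios scaling. Relative to that median, Fosl1 was at 1.02, Batf at 0.72, Jdp2 at 0.61 and Fosl2 at 0.52 in the P7 pair.

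Junb followed a course of its own: it fell by P1 and then rose. It was at 169 and 193 FPKM at E18.5, 56.2 and 67.2 in the P1 pair, 73.5 and 97.9 in the P3 pair, and 164 and 198 in the P7 pair. The P1 and P3 libraries lay below every E18.5 and P7 library, and the P7 values spanned the E18.5 values. By limma, Junb fell at P1 (log2FC -1.54 ± 0.18 SE, adjusted p = 5.08e-04) and had a log2FC of -0.00 ± 0.18 at P7 against E18.5 (-0.002706 before rounding, adjusted p = 0.990), which was 0.26 in TPM (adjusted p = 0.263).

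Between P1 and P7 Junb was the 1 member of 10 that rose, against 3.45% of all genes called higher. The mean rose 2.93 times (log2FC 1.54 ± 0.18 SE, adjusted p = 1.26e-03, limma), and the log2FC stayed between 1.40 and 1.67 over 14 fits. Between P3 and P7 it was again the 1 member called, against 1.35% of genes (log2FC 1.08 ± 0.18 SE, adjusted p = 0.0157, limma), but this call was lost without P3 library 1 (0.87, adjusted p = 0.108), P3 library 2 (1.28, 0.0595) or P7 library 2 (0.94, 0.129) and with no filter on low values (1.08, 0.109). Between P1 and P3 none of the 10 was called by limma, against 0.0143% of all genes, and 2 members had an unadjusted p under 0.05: Junb (0.46 ± 0.18 SE, adjusted p = 0.385) and Atf3 (-0.64 ± 0.21 SE, adjusted p = 0.309). Junb was also the member that was called at P7 against P1 in each of the 14 fits, and Fosl1 joined it without P1 library 1 (1.44, adjusted p = 0.0238, limma). The other 9 members had log2FC values of -0.04 (Atf3) to 0.86 (Fosl1) between P1 and P7.

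**Figure D2:**
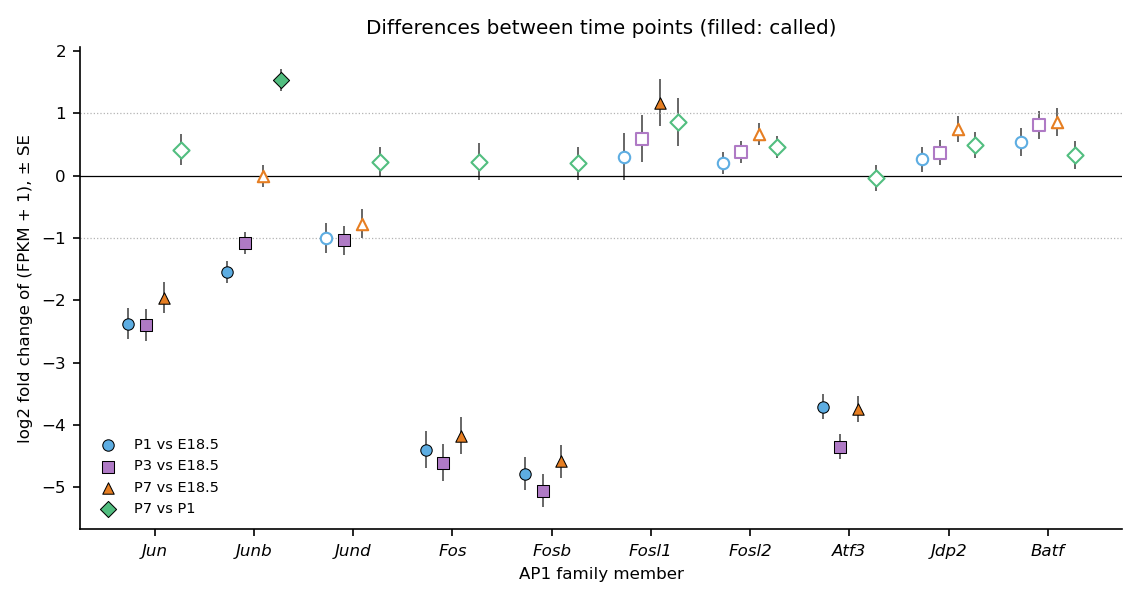
log2 fold change of FPKM + 1 with its standard error for the 10 members in 4 comparisons of mouse libraries (2 per group), with filled symbols for calls and dotted lines at -1 and 1. Fosb, Fos and Atf3 lie below -3.5 in all 3 comparisons with E18.5, and the P7 vs P1 symbol is filled for Junb at 1.54 and open for the other members.

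Because FPKM is per length, the members can be set against each other as levels. The family sum was 791 and 1079 FPKM at E18.5, 246 and 244 in the P1 pair, 252 and 285 in the P3 pair, and 402 and 432 in the P7 pair. At E18.5 the levels of Junb (mean 181), Atf3 (174), Fos (171), Jun (156) and Jund (148) overlapped with their neighbours in this order, and Fosb (53.4) stood below them. At P1 the order was Jund (70.5), Junb (61.7) and Jun (28.1), with no overlap between neighbours. At P3 and P7 Junb led, with 85.7 and 181 FPKM, above Jund at 68.6 and 82.7. Fos was the eighth or ninth of 10 from P1 on, and Fosb the last.

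Fos, Fosb, Atf3 and Jun together made up 57.4% and 60.6% of the family sum at E18.5 and 14.0% to 22.2% in the later libraries. The share of Junb was 19.6% ± 2.4 (SD, n = 2) at E18.5, 25.2% ± 3.3 in the P1 pair, 31.8% ± 3.7 in the P3 pair and 43.2% ± 3.5 in the P7 pair. Both P7 libraries (40.8% and 45.7%) lay above the 6 others, of which the highest was 34.4%. At E18.5 and P7 Junb thus stood at near-equal FPKM with shares that did not overlap.

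The Fos subfamily changed its make-up. Fosl1 and Fosl2 made up 14.7% and 8.80% of the Fos subfamily sum at E18.5 and 70.4% to 88.6% in the later libraries. The Jun subfamily sum was 1.90 ± 0.38 (SD, n = 2) times the Fos subfamily sum at E18.5, 3.69 ± 0.92 in the P1 pair, 3.83 ± 0.15 in the P3 pair and 4.64 ± 0.29 in the P7 pair. The shares are parts of a whole, so a fall in 1 member raises the others.

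**Figure D3:**
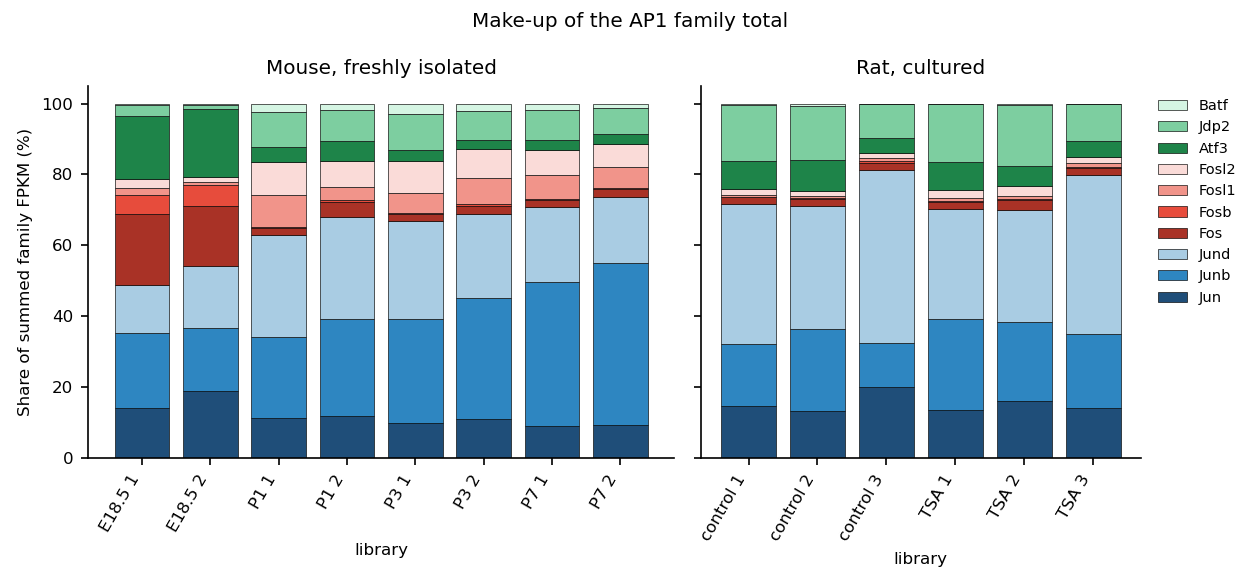
Stacked shares (percent) of the 10 members in the summed FPKM of the family, 1 bar per library, mouse on the left and rat on the right. Green (Atf3) and red (Fos, Fosb) fill much of the E18.5 bars, blue (Jun subfamily) fills 62.8% to 73.6% of later mouse bars, and light blue (Jund) is the widest part of every rat bar.

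Transcript estimates were dominated by 1 annotated form in most members. The leading form held at least 88.8% of the gene's FPKM in every mouse library for Jun, Junb, Jund, Fos, Fosl1, Fosl2, Atf3 and Batf, and 65.2% to 96.6% for Jdp2. Fosb was the exception. Its full-length form of 338 codons (Fosb-201) was at 0.804 and 0.0677 FPKM at E18.5, whereas the E18.5 reads were assigned mainly to Fosb-205 (299 codons, 24.0 and 29.8 FPKM), Fosb-207 (201 codons, 10.5 and 18.2) and Fosb-206 (237 codons, 4.58 and 11.3), the last of which is the truncated form known as delta FosB. In the 6 later libraries the full-length form was at 0.284 to 1.39 FPKM, and Fosb-205 and Fosb-207 were listed at 0. These forms share most of their bases, so the split rests on the authors' assignment of shared reads.

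Other genes of the pathway were counted from lists. Of 14 tested upstream kinases and factors, 5 rose and none fell at P7 against E18.5 (median log2FC 0.40, all genes 0.14), against 15.4% of all genes called higher and 12.3% called lower, among them the stress kinase p38 alpha (Mapk14, 5.30 and 5.31 to 24.7 and 24.1 FPKM, log2FC 2.01), the Ets factor Elk3 (1.66) and the kinase Map2k1 (1.42). Of 18 tested bZIP partners, 3 rose and 3 fell (median 0.02), against the same 15.4% and 12.3% of all genes. Among them Mafk fell (-1.71), and Cebpb, a factor of inflammation and differentiation, rose (1.75).

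Of all genes 6.06%, 8.88% and 12.3% were called lower at P1, P3 and P7 against E18.5. Called higher were 1411 of 13979 at P1 and 15.4% at P7. Of 30 immediate early and dissociation genes outside the family, 19 fell and none rose at P1 (median -1.34), 16 fell at P3 and 14 fell with 1 higher at P7 (median -0.86). The largest changes at P7 were Hspa1a (log2FC -4.69), Hspa1b (-3.69) and Nr4a1 (-3.61). Hspa1a and Hspa1b are near-identical heat shock genes whose reads may be split between them, with 221 and 483 FPKM listed for Hspa1a at E18.5 and 11.1 and 12.3 in the P7 pair. Nr4a1, an immediate early nuclear receptor, was at 79.2 and 66.0 FPKM at E18.5 and at 5.32 and 4.74 in the P7 pair. Between P1 and P7 4 genes of this list rose, beside 3.45% of all genes, and none fell. In that comparison 1245 of all 13979 genes were called, 482 of them higher.

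Of 23 tested textbook AP1 targets, 10 rose and 3 fell at P7 against E18.5 (median 0.95), beside 15.4% and 12.3% of all genes. Mmp3, a matrix protease, was at 0.151 and 0.0649 FPKM at E18.5 and at 403 and 594 in the P7 pair (log2FC 8.79), Spp1, or osteopontin, rose by 4.38 and Timp1, an inhibitor of matrix proteases, by 4.37. Mmp3, Spp1 and Timp1 are also known from fibroblasts and macrophages, whose marker sums were higher at P7 as given above. Between P1 and P7 7 targets rose, beside 3.45% of all genes, and none fell. Of all 13979 genes 1245 were called in that comparison, 482 of them higher.

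The tested genes most like a member over the 8 mouse libraries were found by Pearson's r of log2(FPKM + 1) among 13968 genes, as a description only, since E18.5 stands apart from the other 6 libraries. For Fos they were Creb5, Hbb-bs and Hbb-bt (r 0.99 to 1.00), and for Atf3 Il23a, Dnajb9 and Hbb-bs (0.99 to 1.00). The globin genes Hbb-bs and Hbb-bt thus shared the step of Fos: Hbb-bs was at 10045 and 12491 FPKM at E18.5 and at most 10.03 later. For Junb they were Gna13, Tnf and Rela (0.98 to 0.99), of which Tnf was at 6.77 and 9.91 FPKM at E18.5, 0.389 and 0.591 in the P1 pair, and 6.81 and 8.25 in the P7 pair. For Jund they were Ltb, Dnajb1 and AW551984 (all 0.99), and for Fosl2 Slc41a2, Slc39a6 and Rnf149 (0.98 to 0.99).

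In the rat cells the question was whether TSA changed the factors. Control 3 stood apart, with the highest Jun, Jund, Fos, Fosb, Fosl1 and Fosl2 of the 6 libraries. None of the 8 members that passed the filter on low values was called by limma, against 2.13% of all 13625 tested genes, and 2 had an unadjusted p under 0.05. All TSA libraries lay below all control libraries for 3 of these 8, Jun, Atf3 and Jdp2, against 10.1% of all tested genes.

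Atf3 was at 18.5, 18.6 and 14.1 FPKM in the controls and at 11.5, 9.45 and 9.22 with TSA. The groups did not overlap, and the log2FC was -0.71 ± 0.15 SE (adjusted p = 0.0534, limma). With the replicate number as a block the adjusted p was 0.0398. Without control 3 and TSA 3 the log2FC was -0.78 with adjusted p = 8.94e-03 (limma).

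Jdp2 was at 37.5, 32.7 and 31.3 FPKM in the controls and at 23.8, 28.2 and 20.7 with TSA, with a log2FC of -0.47 ± 0.14 SE (adjusted p = 0.118, limma). Jun was at 34.1, 28.4 and 66.1 FPKM in the controls and at 19.5, 26.2 and 27.9 with TSA (log2FC -0.70 ± 0.31 SE, adjusted p = 0.275, limma), and -0.44 without control 3 and TSA 3.

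Jund led the family in every rat library, with 93.0, 74.1 and 161 FPKM in the controls and 45.1, 51.5 and 89.3 with TSA. The groups overlapped and the log2FC was -0.80 ± 0.35 SE (adjusted p = 0.268, limma). With the replicate block the adjusted p was 0.0398, and without control 3 and TSA 3 it was 0.0142 at a log2FC of -0.77 (limma). TSA 3 was higher than TSA 1 and 2, just as control 3 was higher than control 1 and 2.

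Junb was at 41.3 to 49.2 FPKM in the controls and 36.0 to 41.8 with TSA (log2FC -0.19 ± 0.11 SE, adjusted p = 0.405, limma). Fos (-0.30), Fosl1 (-0.03) and Fosl2 (-0.12) had adjusted p-values from 0.491 to 0.966 (limma). Fosb (0.503 to 1.22 FPKM in the controls, 0.259 to 0.404 with TSA) and Batf (0.464 to 1.13 and 0.212 to 0.404) stayed under the filter and were not tested. The family sum was 260 ± 62.3 FPKM (SD, n = 3) in the controls and 169 ± 27.5 with TSA, and the Junb share was 17.7% ± 5.3 and 22.9% ± 2.5.

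Fibroblast markers summed to 6897 to 7502 FPKM in the rat controls and 3898 to 6464 with TSA, and cardiomyocyte markers to 6978 to 12140 and 7336 to 18446. Macrophage markers summed to 1018, 1038 and 491 FPKM in controls 1 to 3 and to 541, 462 and 407 with TSA. Smooth muscle and pericyte markers summed to 879 to 2369 and 632 to 1597. The part of these in the rat values, Plau included, was not tested. Of 17 tested AP1 targets 1 was called with TSA, beside 2.13% of all genes: Plau, the urokinase protease, which fell from 40.8, 38.5 and 20.9 FPKM to 12.8, 12.6 and 9.69 (log2FC -1.39 ± 0.26 SE, adjusted p = 0.0382, limma).

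**Figure D4:**
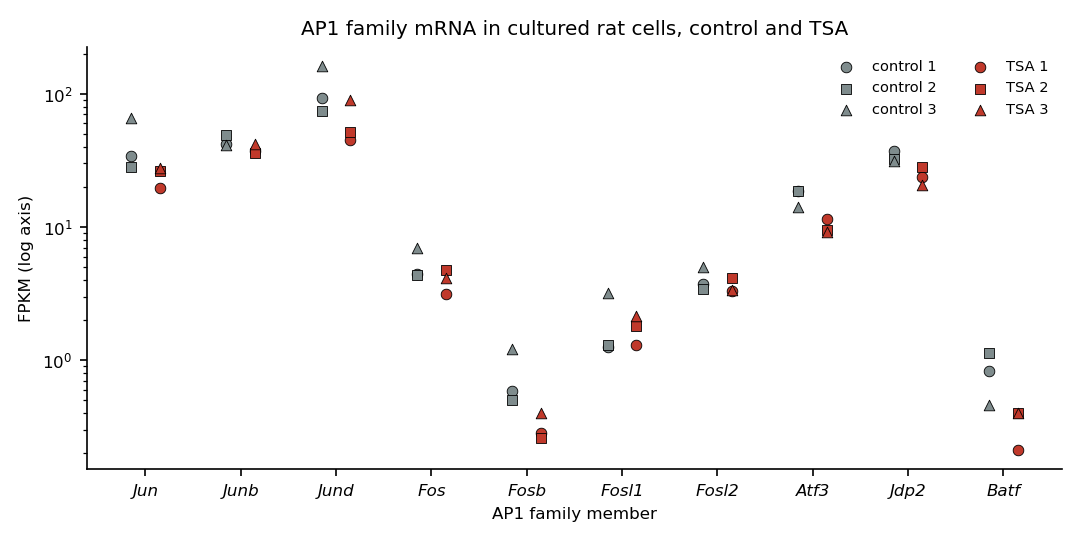
FPKM (log axis) of the 10 members in the 3 control (grey) and 3 TSA (red) rat libraries, with 1 symbol shape per replicate number. Jund is at the top in all 6 libraries (45.1 to 161 FPKM), the TSA points of Atf3 (9.22 to 11.5) lie below its control points (14.1 to 18.6), and the triangles of control 3 stand high for Jun and Jund.

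The accessible regions near the 10 genes were compared by whether the authors' peak list of a library held them. Of the 111 regions 21 lay within 2.5 kb of an annotated start and 90 further away. Fosb had 19 regions, Fosl1 18, Junb 15, Jund and Jdp2 11 each, Fos 10, Atf3 9, Jun and Fosl2 7 each, and Batf 4. Fos, Jdp2 and Batf are neighbours on chromosome 12. Each region was given to the nearest start among the 10 genes, also where it lay on another gene. Many regions near Fosl1, Fosb and Junb overlapped exons or introns of other genes, such as Cfl1, Rtn2 and Rnaseh2a. Distance was the only tie used, and whether a region controls the gene named was not tested.

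The start regions of Fos, Jun, Atf3, Fosl2 and Jund were in all 8 lists, at every time point. At the Fos start the authors' fold enrichment was 4.93 and 5.61 at E18.5, 3.95 and 4.14 in the P1 pair, 4.32 and 4.68 in the P3 pair, and 3.76 and 3.33 in the P7 pair, values that are not scaled between libraries. At the Atf3 start it was 6.38 and 6.60 at E18.5 and 8.62 and 5.92 in the P1 pair. The Junb region between its transcripts, printed above with its CArG box, was in all 8 lists too, and the Junb start region itself in 6. The Fosb start region was in 6 lists and missing from E18.5 library 2 and P1 library 2. Batf had no region within 2.5 kb of a start among the regions kept, which were found in at least 2 libraries.

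In total 20 of the 111 regions (18.02%) were in all 8 lists, against 5437 of all 63439 (8.57%). Fos held 5 of the 20, at -37.5, -18.4, -1.58, 0.113 and 11.2 kb from their nearest annotated Fos starts. Jund and Fosl1 held 3 each, Junb, Fosb and Atf3 2 each, Jun, Fosl2 and Batf 1 each, and Jdp2 none. All 3 Fosl1 regions overlapped exons of other genes. Fos mRNA was 22.4 times lower at P1. The 5 Fos regions, the CArG box regions among them, were listed at both time points, and whether their accessibility changed was not tested.

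Regions gained were those in both lists of a later time point and neither at E18.5. Near the 10 genes 4 were gained at P1, 54 at P3 and 32 at P7, against 6.16%, 55.9% and 23.4% of all regions, and 2 were lost at P1, both near Junb, against 1.47%. None near the 10 genes was lost at P3 or P7, where only 118 and 100 of all 63439 regions were lost. The lists ran from 13149 peaks at E18.5 to 95257 at P3, and these counts moved with their length: with the 13149 highest-scored peaks of each library, 3, 4 and 5 were gained and 8, 13 and 6 lost at P1, P3 and P7, so that near these genes losses outnumbered gains. In that setting 46 of 19625 regions lay near the 10 genes, and over all of them 1249, 3483 and 1805 were gained and 2253, 2119 and 1075 lost, so that gains outnumbered losses at P3 and P7. Each of these counts is of presence in a list, and the part of peak calling depth in them was not tested. Without P1 library 2, 31 were gained at P1, without E18.5 library 2 or P1 library 1, 7 or 10 were lost, and without P7 library 2, 51 were gained at P7. In the same order the counts over all regions were 9856 of 61112, 2196 of 62932, 3695 of 60736 and 31941 of 61821.

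The 2 regions lost at P1 were at -7.21 kb, printed above with 3 AP1 elements, and at -48.2 kb from the Junb start. Both were in all 4 lists of P3 and P7, and that at -48.2 kb overlapped an exon of another gene, Trir. The Junb region at -7.21 kb had fold enrichments of 4.78 and 3.85 at E18.5, 3.01 and 3.76 in the P3 pair, and 3.72 and 3.70 in the P7 pair. Both Junb regions with a CArG box were in both P1 lists. The Fos region at 44.8 kb with AP1 elements on both strands was gained at P3 and P7, with fold enrichments of 8.46, 4.28, 4.52 and 4.18.

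**Figure D5:**
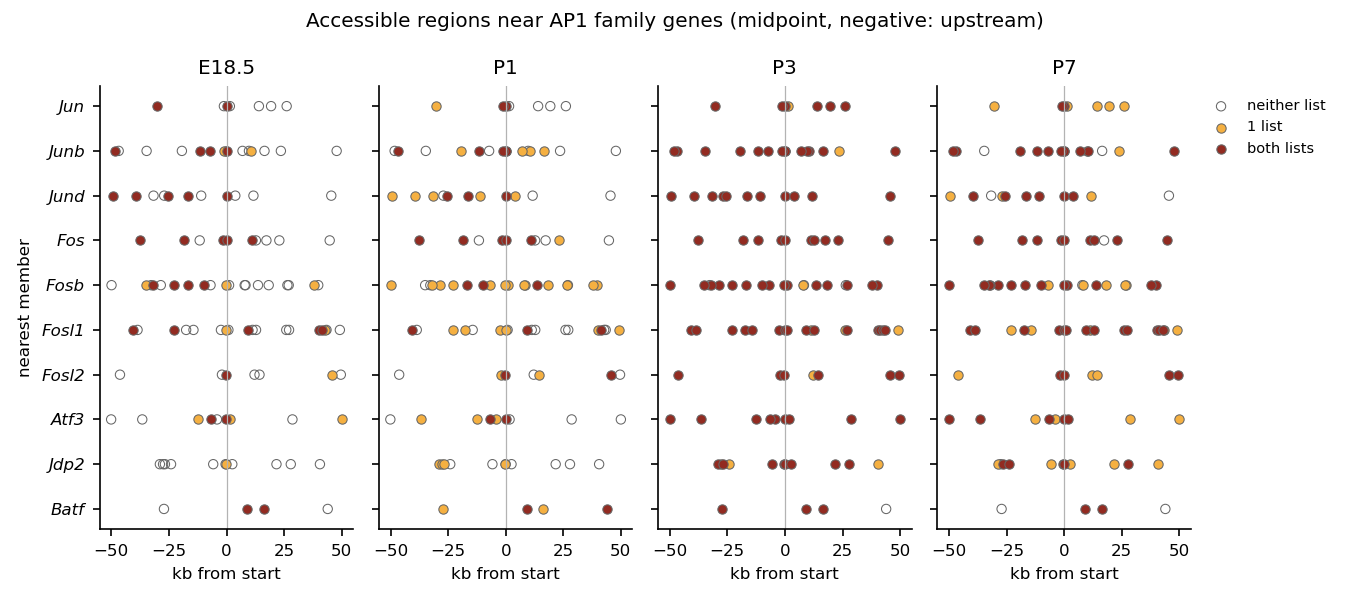
Regions near the 10 genes by the distance of their midpoint from the nearest start (kb, negative upstream), 1 panel per time point, with open circles for regions in neither list, orange for 1 list and dark red for both. The P3 panel is the fullest, after lists of 95257 and 52040 peaks, and the Fos regions from -37.5 to 11.2 kb that are dark red at E18.5 are dark red in every panel.

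Motif letters were searched on both strands in 201 bases around each region's strongest summit, each motif counted on its own even where matches overlap. The AP1 element TGACTCA was in 22 of the 111 regions (19.8%) and in 12108 of 63285 regions on assembled chromosomes (19.1%). The CArG box was in 5 (4.50%) against 1.09% of all regions. These were at the Fos start, Fos at 11.2 kb, both Junb regions shown, and 41.3 kb from Fosl1 on an exon of another gene. The variant element TGACATCA was in 6 (5.41%) against 2.04%, the cAMP response element TGACGTCA in 2 (1.80%) against 0.896%, and the MEF2 consensus in 3 (2.70%) against 2.13%.

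Promoter windows of 300 bases from RefSeq (GRCm38.p6) were found for 9 of the 10 genes (all but Fosl1), 11 windows in all. The AP1 element was in none of the 11, against 5.20% of 32851 windows. It was, however, in the summit windows of 4 of the 21 regions within 2.5 kb of an annotated start, at Fosl1, Fosl2 and Atf3. RefSeq starts and the annotated starts used for regions can differ. For Jund the bases before the RefSeq start (chr8:70697489-70697738) lie upstream of the annotated start at 70698949. TGACATCA was in that of Jun, against 3.62%, and the MEF2 consensus in those of Jun and Atf3, against 3.19%. A match is a description of the letters and no match says only that they are not in this window.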

How the data were processed

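The gene FPKM values were made by the authors, who aligned reads with HISAT2 2.1.0 to mm10 or rn6 and estimated transcripts with StringTie (1.3.5 for mouse, 1.3.4d for rat, per the file headers). Transcript FPKM were summed per gene by reference gene name. No strand setting was used, so reads cannot be told apart where Jun overlaps its antisense gene Junos, Jund overlaps Gm11175, or the Junb span overlaps Prdx2. That span takes in the noncoding Junb-202, and Junb-201 held at least 99.76% of Junb FPKM in every mouse library. limma 3.58.1 (R 4.3.3) was fitted on log2(FPKM + 1) over all 8 mouse or all 6 rat libraries, with genes of at least 1 FPKM in 2 mouse or 3 rat libraries, and Benjamini-Hochberg adjustment over all genes. The fits were tested on simulated data.

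Peaks were called by the authors with MACS2 in each library. The deposited lists give a score, a fold enrichment (a ratio), and −log10 p-values and −log10 q-values. Peaks that overlapped were merged, and 63439 of 113857 merged regions found in at least 2 libraries were kept. Near the 10 genes 41 regions of a single library were left out. Coordinates were checked against the chromosome lengths of GRCm38.p6. HiChIP samples were not analysed here.

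Libraries held 29.3 to 37.5 (mouse) and 28.2 to 38.5 (rat) M aligned reads. All 10 members are named. From the context lists at most 3 called genes of largest change are named, and 1 that this rule selects is not reported here. The members and lists were chosen with earlier results of these data known. The labels do not say whether rat libraries of the same number are paired. Deviations of same-numbered rat libraries correlated at 0.19 to 0.35. Between numbers 1 and 2 they correlated at 0.09 and 0.17, and between number 3 and the others at -0.27 to -0.20. The main rat fit left the number out, and the block on it is given as an alternative. Alternatives were another pseudocount, other filters, TPM, median-of-ratios scaling, voom, the block, fits of 2 time points, and each library left out.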

Additional observations from a re-analysis of the deposited data

How the results depend on the processing

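Over 888 alternative fits of 68 member fold changes, 837 kept direction and side of the thresholds, 14 lost the call, 16 gained it and 21 changed sign, all of the last in values that were not called. Outside the left-out libraries these were Junb at P7 against E18.5 in TPM (0.26), and Fosl1 (0.16) and Fosl2 (0.038) with TSA without control 3 and TSA 3. Leaving out 1 library at a time gave these ranges: Fosl1 (-0.27 to 0.89) and Jdp2 (-0.063 to 0.58) at P1 against E18.5, Junb at P7 against E18.5 (-0.14 to 0.13), Atf3 (-0.23 to 0.15) and Fos (-0.26 to 0.72) at P7 against P1, Fosl1 (-0.18 to 0.26) and Fosl2 (-0.22 to 0.0031) with TSA, Batf at P7 against P3 (-0.12 to 0.20), and at P3 against P1 Jun (-0.16 to 0.12), Fosb (-0.56 to 0.014), Fosl2 (-0.0017 to 0.36), Fosl1 (-0.29 to 0.86) and Fos (-0.70 to 0.28).

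The count of members called at P7 against E18.5 ran from 4 to 8 with a library left out (8 without E18.5 library 1), that at P7 against P1 from 1 to 2, and that of P3 against P1 or P7 against P3 from 0 to 1, with 0 under no filter on low values. Deviations of same-numbered mouse libraries correlated at -0.10 to 0.17. With 2 libraries per stage the deviations are mirror images, so these values cannot say whether libraries of the same number are paired. With the replicate block 0 of 8 members were called with TSA and 5 at P1 against E18.5, as without it. Leaving out the erythroid genes (chosen after seeing the data, as was leaving out control 3 with TSA 3) gave 6 calls at P1, 6 at P3 and 5 at P7. In the main fit 6.06%, 8.88% and 12.3% of all genes were called lower at P1, P3 and P7, and 15.4% higher at P7. The shares of all genes called in the alternative fits are not given here, so these counts of members cannot be set against them. Junb shares from estimated reads were 15.7%, 19.8%, 25.1% and 35.4% at E18.5, P1, P3 and P7.

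Gained regions near the members at P1 numbered 2 of 65 within 25 kb, against 3911 of all 63439. With a library left out they numbered 3 to 31, against 3128 of 60736 and 9856 of 61112 regions in the same settings. Those at P3 numbered 4 of 46 with equal numbers of top peaks, against 3483 of all 19625 regions. They numbered 31 of 71 in the upper 0.5 of each list, against 17320 of 32360, and 30 of 65 within 25 kb, against 35454 of 63439. Those at P7 numbered 5, 12 and 17 in the same settings, against 1805, 7116 and 14822 over all regions. With an E18.5 or P7 library left out they numbered 36 to 51, against 16892 of 62932 and 31941 of 61821. With a P1 or P3 library left out they numbered 32 or 33, against 14821 to 14883 over all regions. Lost regions at P1 numbered 8, 1 and 1 in these settings, against 2253, 482 and 935 over all regions. With a library left out they numbered 2 to 10, the 10 against 3695 of 60736. With equal numbers 13 were lost at P3 and 6 at P7, against 2119 and 1075 of 19625. Leaving out a library gave 0 to 2 at these time points, the 2 against 283 of 61821. The cause was not tested.

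Depth limits the low members: Fosb in P3 library 1 rested on 43.5 estimated reads and Batf in rat TSA 1 on 6.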

Other observations

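Over all regions on assembled chromosomes, the AP1 element was in 6.46% of the 9328 that were in both E18.5 lists, in 6.01% of the 5407 in all 8 lists, and in 26.6% of the 14798 gained at P7. Near the 10 genes it was in 5 of 30, 3 of 20 and 4 of 32 of the same classes.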
